A study of Mus musculus with 384 samples.

Results

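The cells described here are 15 *Gad1*-positive cells of the dopamine transporter (DAT) lineage in the midbrain and hypothalamus of the mouse. They were chosen by their reads. Of 384 cells in the count table, 209 held at least 500000 reads on genes, and among these 15 held at least 10 reads of *Gad1* and 194 held fewer. The 194 are called *Gad1*-negative, and *Gad1* itself enters no comparison because it set the groups.

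All cells came from 8 DAT-IRES-Cre;Ai9 mice of the C57BL6/J strain, 3 labelled female and 5 labelled male, 24 to 36 days old and without any treatment named in the labels. In these mice Cre comes from the locus of *Slc6a3*, the DAT gene, and the tdTomato mark that it turns on is permanent, so a labelled cell need not make *Slc6a3* when it is taken. Living tdTomato+ cells (negative for propidium iodide) were sorted from dissected tissue that included the hypothalamus, which the labels call midbrain, and each was captured in a chamber of a Fluidigm C1 chip. Each mouse had its own C1 run, and *Gad1*-positive and *Gad1*-negative cells of a mouse shared genotype, sort and chip.

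*Gad1* encodes GAD67, an enzyme that makes the inhibitory transmitter GABA from glutamate. Dopamine neurons of the hypothalamus, among them those of the arcuate nucleus that restrain the release of prolactin from the pituitary, often carry the GABA enzymes and peptides such as galanin, and they sense prolactin through its receptor. Dopamine neurons of the ventral midbrain arise from another part of the neural tube and depend on transcription factors such as *Nr4a2*, *Pitx3* and *En1*. *Th* encodes tyrosine hydroxylase, the rate-limiting enzyme of dopamine synthesis in both.

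The limit of 10 reads fell in a gap. The positive cells held 12, 14, 53, 95, 103, 162, 239, 500, 560, 610, 733, 875, 967, 995 and 1048 reads of *Gad1* (chromosome 2, 70561303 to 70602014 of GRCm38). Of the negative cells, 184 held no read, 5 held 1 and 5 held 2, so the cells nearest the limit held 2 and 12 reads. In CPM (reads scaled to a fixed library total of 1000000), the positive cells ranged from 13.4 to 1413 with a median of 624. Both groups were sequenced to a like depth, with a median of 741816 reads in positive and 781213 in negative cells, while fewer genes were detected in positive cells (median 8015 against 9187.5).

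**Figure D1:**
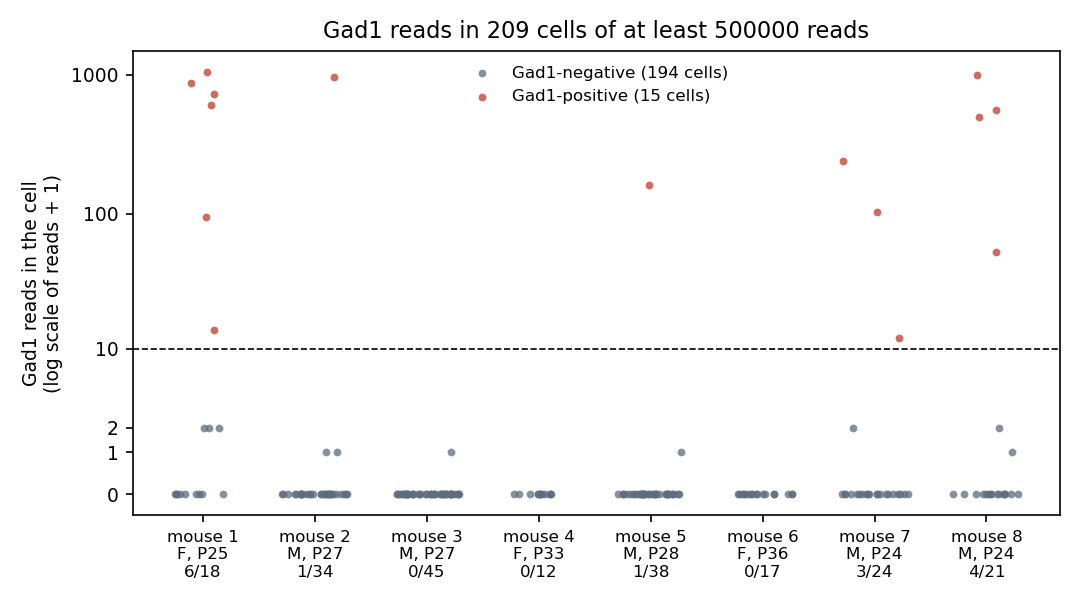
Reads of *Gad1* in each of the 209 cells of at least 500000 reads, on a log scale of reads + 1, by mouse with its sex, age in postnatal days and the number of positive cells of all its cells. Each point is a cell, the broken line is the limit of 10 reads, and no cell lies between 2 and 12 reads.

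*Gad1*-positive cells were unevenly spread over the mice. They made up 7.18% of the 209 cells (95% exact binomial interval 4.07–11.6%). Mouse 1, a female, gave 6 of 18 cells, mouse 8, a male, gave 4 of 21, and mouse 7, a male, gave 3 of 24. Mice 2 and 5, both male, gave 1 of 34 and 1 of 38. Mice 3, 4 and 6 gave 0 of 45, 0 of 12 and 0 of 17 cells, which allows shares of up to 6.67%, 25.0% and 17.6% if a count of 0 is taken as up to 3 cells (exact binomial upper limits 7.87%, 26.5% and 19.5%). Females and males did not separate: the mean share was 11.1% ± 19.2 (SD, n = 3) in females and 7.42% ± 8.05 (SD, n = 5) in males, a difference of 3.69 points (exact permutation test over mice, two-sided, p = 0.821). Without mouse 1 the difference was -7.42 points, with an exact permutation p of 0.286.

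The 3 mice with the highest shares were 24 or 25 days old, and the others were 27 to 36 days old. According to the labels, mice 1, 2, 6, 7 and 8 were run on chips marked medium and mice 3, 4 and 5 on chips marked large, which catch cells of different diameters. The study's methods name a single chip size and a narrower age range, and the series description gives other numbers of each sex than the sample labels, which were used here. Of the 15 positive cells, 14 were among the 114 cells of the medium chips and 1 was among the 95 cells of the large chips. By mouse, the share was 13.6% ± 13.4 (SD, n = 5) on medium and 0.877% ± 1.52 (SD, n = 3) on large chips (exact permutation test, two-sided, p = 0.143, a comparison chosen after the data were seen). Within medium chips the difference between females and males was 5.17 points, with 2 and 3 mice, and within large chips it was -1.32 points, with 1 and 2. On the C1 machine used for both sexes it was 3.39 points, with 3 females and 2 males. On lane 1 it was 31.9 points (1 female, 2 males) and on lane 2 -11.4 points (1 female, 3 males). Chip, age and mouse cannot be told apart beyond these values.

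For the comparison across genes, reads were summed over the positive and over the negative cells of each mouse that had at least 3 cells on either side. Mice 1, 7 and 8 met this, with 6, 3 and 4 positive cells and 12, 21 and 17 negative cells. The sums held 2462703 to 3993984 reads for positive and 8763277 to 16201929 for negative cells. Of 12036 genes tested with the quasi-likelihood test of edgeR, 0 passed an adjusted p of 0.05 in either direction (0%), and 856 had an unadjusted p under 0.05. DESeq2 called 109 genes higher and 188 lower on the same sums. Because so few mice carried several positive cells, the values that follow are given per mouse and per cell, and an adjusted p from edgeR is given with its size. The adjustment gave many genes one tied adjusted p of 0.307, so this value does not rank them. It covers, for example, unadjusted edgeR p of 0.000141 for *Gal* and 0.00463 for *Pitx3*.

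A second count does not use a test. The 3 positive sums all lay above the 3 negative sums for 612 of the 12036 genes (5.08%), and all lay below them for 1295 (10.8%). With only 3 sums on each side such separation also arises by chance, so for a single gene it is a description. Every count of genes whose sums did not overlap is read beside these shares. When mice 2 and 5, with 1 positive cell each, were added (5 mice, 11615 genes), edgeR called 14 genes higher (0.121%) and 97 lower (0.835%). Of the 97, 36 had no read in any of the 5 positive sums and 95 had 10 reads in under 50% of all negative cells, so that for most of them the positive sums, of 1 to 6 cells, were compared near 0. With the mouse as a block, a fit added after the data were seen, the 5 mice left 3 genes higher (0.0258%; *Pkib*, *Rab3b* and *Fam159b*) and 1 lower (0.00861%; *Tac1*). With positive cells of at least 100 *Gad1* reads (9 cells of mice 1, 7 and 8, also added after the data were seen), edgeR called 1 of 11692 genes higher, *Pkib*, and 1 lower, *Slc17a6* (0.00855% each).

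*Gal*, the gene of the peptide galanin (chromosome 19, 3409915 to 3414544), was among the genes with the largest difference. Its level in the positive sums was 239, 298 and 472 CPM in mice 1, 7 and 8, and in the negative sums it was 0, 2.28 and 1.53 CPM. The sums did not overlap and the lowest positive sum exceeded the highest negative sum in each mouse. The mean was 336 ± 121 CPM in positive and 1.27 ± 1.16 CPM in negative sums (SD, n = 3 mice each), a log2 fold change of 7.98 ± 1.15 (SE) with an edgeR adjusted p of 0.307, and of 6.55 with an adjusted p of 0.0441 over 5 mice, a call that was lost with the mouse as a block (adjusted p = 0.231). At least 10 reads of *Gal* were present in 10 of 15 positive and 10 of 194 negative cells. Among the positive cells the level ran from 0 through a median of 135 to 1092 CPM, while the highest negative cell held 121 CPM. The single positive cell of mouse 2 held no *Gal* read, and that of mouse 5 held 156 CPM.

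*Th* (chromosome 7, 142892779 to 142899995) was present in every positive cell but at lower values in the sums. The positive sums held 2642, 5034 and 3639 CPM and the negative sums 5859, 6692 and 6148 CPM in mice 1, 7 and 8. The sums did not overlap, with a log2 fold change of -0.70 ± 0.28 (SE) that did not pass the test (edgeR adjusted p = 0.633). The cells with 12 and 53 *Gad1* reads held the highest *Th* of the 15, and with positive cells from 100 reads the positive sums were 3465, 2321 and 1538 CPM, with a log2 fold change of -1.33 (adjusted p = 0.177). Cell by cell the positive cells overlapped the negative ones widely. They ran from 16.5 through a median of 2049 to 9803 CPM, against a median of 6595 CPM and a maximum of 20473 CPM in negative cells. Under 1000 CPM were found in 4 of 15 positive and 24 of 194 negative cells, and over 5000 CPM in 4 and 131.

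**Figure D2:**
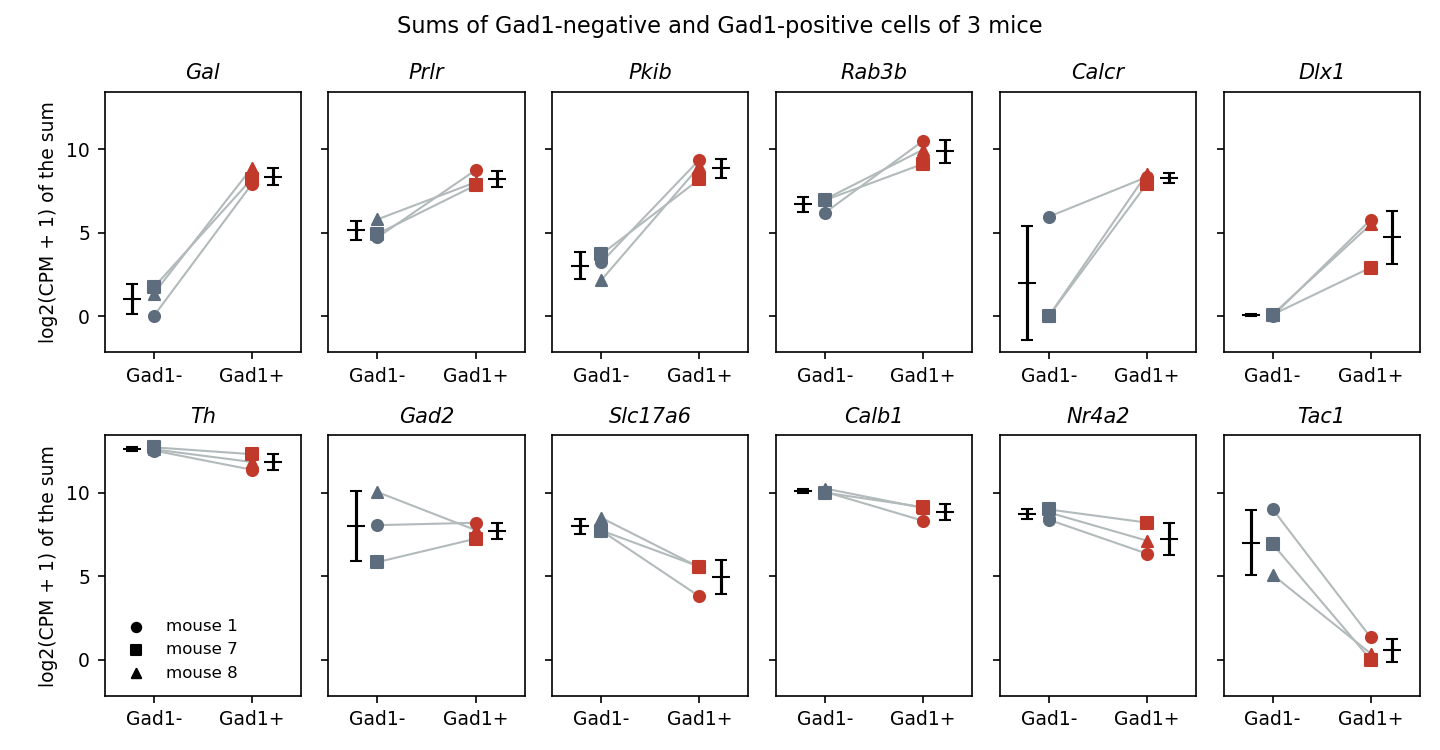
Level of 12 genes in the sums of *Gad1*-negative and *Gad1*-positive cells, as log2(CPM + 1), with a line joining both sums of mouse 1 (circles), mouse 7 (squares) and mouse 8 (triangles) and the mean ± SD of the 3 mice beside them. The positive sums of *Gal*, *Prlr*, *Pkib*, *Rab3b*, *Calcr* and *Dlx1* lie above all negative sums, those of *Th*, *Slc17a6*, *Calb1*, *Nr4a2* and *Tac1* lie below, and those of *Gad2* overlap.

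The other GABA genes did not follow *Gad1* as a group. *Gad2*, the gene of the second GABA-making enzyme GAD65, reached 10 reads in 13 of 15 positive cells (86.7%) and 29 of 194 negative cells (14.9%). Its sums overlapped, with 291, 150 and 214 CPM in positive and 264, 56.2 and 1044 CPM in negative cells of mice 1, 7 and 8. The negative cells held the highest levels, up to 5370 CPM, and 14 of them exceeded 1000 CPM, which 1 positive cell did at 1199 CPM. The log2 fold change was -1.06 ± 0.87 (SE; edgeR adjusted p = 0.933), and it was 0.48 without mouse 8.

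*Slc32a1*, the vesicular transporter that loads GABA into synaptic vesicles, reached 10 reads in 1 positive cell and in 17 negative cells. Its sums were 13.0, 2.44 and 2.30 CPM in positive and 7.07, 0.432 and 7.64 CPM in negative cells, and they overlapped. *Slc18a2*, the vesicular monoamine transporter, was in contrast present with at least 10 reads in all 15 positive cells. Of the 8 genes for GABA synthesis, packaging and uptake other than *Gad1*, all were tested, 0 passed and all had overlapping sums, with a median log2 fold change of 0.22 beside -0.04 for all genes tested. Among the negative cells, 12 held 10 reads of both *Gad2* and *Slc32a1*.

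The genes of dopamine handling were detected in the positive cells. *Ddc*, which turns L-DOPA into dopamine, *Slc18a2* and *Slc6a3* had at least 10 reads in all 15 positive cells and in 191, 190 and 190 of the 194 negative cells. *Slc6a3* ran from 63.2 through 867 to 6779 CPM over the positive cells, with sums of 848, 1553 and 2924 CPM against 2418, 2810 and 2197 CPM in negative cells. *Slc18a2* sums were 418, 1251 and 1609 CPM against 1382, 2041 and 1847 CPM. In both genes the groups overlapped, and the log2 fold changes were -0.47 ± 0.41 and -0.66 ± 0.47 (SE; edgeR adjusted p = 0.937 and 0.903). Neither overlapped with positive cells from 100 *Gad1* reads: the positive sums were then 906, 710.9 and 1199 CPM for *Slc6a3* and 445, 821 and 884 CPM for *Slc18a2*, with log2 fold changes of -1.39 and -1.28 (adjusted p = 0.177 and 0.178). *Ddc* did not overlap at that limit either, with 927, 736 and 965 against 1207, 1824 and 1675 CPM. Of 10 tested genes of 12 on the list of dopamine synthesis, transport and breakdown, the positive sums lay above the negative ones in 1, the monoamine oxidase gene *Maoa* (136, 190 and 260 against 86.4, 95.4 and 120 CPM), and below them in 2, *Th* and *Maob*. For *Maoa* the log2 fold change was 0.97 in 3 mice, 0.42 in 5 mice, and -0.13 in 5 mice with the block, a fit in which the median of all genes was -0.99. *Maoa* was lower in the positive cells of mice 2 and 5 (13.0 against 101 and 37.9 against 87.0 CPM), and its median was 31.2 CPM over positive and 75.0 CPM over negative cells. With positive cells from 100 *Gad1* reads the *Maoa* sums overlapped, at 181, 36.3 and 152 CPM in positive cells, with a log2 fold change of 0.29. The median log2 fold change of the list was -0.26.

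Transcription factors were counted cell by cell, and the ranges of the groups overlapped. The positive cells held 10 reads of 1 to 8 of 27 listed factors of the hypothalamus and forebrain, with a median of 6, and negative cells held 0 to 4, with a median of 1. At least 3 such factors were found in 14 of 15 positive and 6 of 194 negative cells. For 12 factors of midbrain dopamine neurons the median was 2 in positive cells (range 0–6) and 6 in negative cells (range 0–11), and at least 3 were found in 6 of 15 and 182 of 194 cells.

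Of the 27 forebrain factors 9 were tested. The positive sums lay above the negative ones for 5 of them, among which were *Dlx1*, *Dlx5* and *Sp9*, and below for 1, *Pou3f4*, and the median log2 fold change was 4.78, also with the 2 genes that had no read in one of the groups at their bounds. *Dlx1*, a homeobox gene of forebrain GABA neurons, had 53.6, 6.50 and 43.9 CPM in positive sums and 0, 0.0617 and 0.0637 CPM in negative sums. It reached 10 reads in 7 positive and 0 negative cells, and the negative sums held 2 reads in all. Its edgeR adjusted p was 0.307 in 3 mice, 0.0172 over 5 mice and 0.101 over 5 mice with the block.

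*Sp9*, a zinc finger factor of the same neurons, reached 10 reads in 8 positive and 0 negative cells, with 9.76, 4.06 and 15.8 CPM against 0.114, 0 and 0 CPM. *Dlx2* was too low to be tested and reached 10 reads in 4 positive and 0 negative cells. The sums did not overlap for *Sp9* and overlapped for *Dlx2*.

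*Six6*, an eye and hypothalamus homeobox gene (chromosome 12, 72939882 to 72944899), reached 10 reads in 13 positive and 2 negative cells. Its sums were 241, 36.5 and 58.3 CPM in positive cells and 53.3, 0.0617 and 0 CPM in negative cells, so they overlapped because of the negative sum of mouse 1. Both negative cells came from mouse 1, with 50.1 and 756 CPM of *Six6*, and they held 1986 and 1860 CPM of the glial gene *Slc1a3*. *Six3*, its close relative, reached 10 reads in 11 positive cells and in 3 negative cells, all 3 of mouse 1, and its sums overlapped for the same mouse.

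Among the 12 factors of midbrain dopamine neurons, all tested, the positive sums lay below the negative ones for 7 and above for none, with a median log2 fold change of -1.14. *Nr4a2*, which switches on the dopamine genes in midbrain neurons, had 80.1, 293 and 138 CPM in positive and 331, 507.1 and 447 CPM in negative sums, and it reached 10 reads in 8 of 15 and 189 of 194 cells. *Otx2*, a factor of ventral tegmental neurons, reached 10 reads in 0 positive and 48 negative cells, with sums of 1.502, 0 and 0 against 21.8, 76.7 and 47.6 CPM. *Pitx3* reached 10 reads in 0 positive and 32 negative cells. None of the 3 passed in 3 mice (edgeR adjusted p = 0.626, 0.307 and 0.307), and over 5 mice *Otx2* and *Pitx3* did (adjusted p = 0.0411 and 0.0405), though not with the block (adjusted p = 0.202 for both). *En1* sums overlapped, at 17.8, 117 and 80.7 CPM against 60.0, 148 and 135 CPM, and with positive cells from 100 *Gad1* reads at 22.2, 74.5 and 20.8 CPM, also with overlap. The median over the 15 positive cells was 3.92 CPM.

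*Prlr*, the gene of the prolactin receptor (chromosome 15, 10177238 to 10349190), had 427, 227 and 258 CPM in the positive sums and 25.2, 29.4 and 54.4 CPM in the negative sums, with no overlap. The mean was 304 ± 108 against 36.3 ± 15.8 CPM (SD, n = 3 mice), a ratio of 8.37, and the log2 fold change was 3.06 ± 0.45 (SE; edgeR adjusted p = 0.307). All 15 positive cells had at least 10 reads, from 43.8 through 246 to 957 CPM, against 55 of 194 negative cells. Mice 2 and 5 had 676 and 557 CPM in their positive cells and 22.0 and 42.7 CPM in their negative sums, and *Prlr* passed over the 5 mice (log2 fold change 3.65, adjusted p = 0.0118) but not with the block (adjusted p = 0.120).

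*Calcr*, the calcitonin receptor, was present in 14 of 15 positive and 10 of 194 negative cells. Its sums were 320, 243 and 369 CPM in positive cells and 60.8, 0 and 0 CPM in negative cells and did not overlap. The log2 fold change was 3.96 ± 2.16 (SE; edgeR adjusted p = 0.843). It ran from 2.50 to 14.53 over the alternatives, the latter without mouse 1, where no negative sum holds a *Calcr* read and the fitted value is no bound. *Ramp3*, a partner protein that turns the calcitonin receptor into an amylin receptor, had 60.6, 18.3 and 39.9 CPM against 0.114, 2.35 and 4.65 CPM and reached 10 reads in 5 and 10 cells.

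*Esr1*, an estrogen receptor, reached 10 reads in 9 positive and 19 negative cells, with sums of 170, 12.6 and 87.3 against 14.1, 10.5 and 6.94 CPM that overlapped through mouse 7. *Nr3c1*, the glucocorticoid receptor, had 134, 164 and 88.7 against 45.1, 29.3 and 41.1 CPM without overlap. *Ghr*, the growth hormone receptor, went the other way, at 0.501, 9.34 and 10.3 against 37.2, 83.6 and 51.5 CPM. Of 34 listed hormone and metabolic receptors 23 were tested, and the positive sums lay above the negative ones in 5 and below in 3, with a median log2 fold change of 0.60 and none past the threshold in 3 mice.

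Downstream of the prolactin receptor the listed genes did not move as 1 group. Of 11 listed genes of prolactin signalling 8 were tested, the positive sums lay above the negative ones for *Prlr* and *Stat5b* and below for *Stat3* and *Socs2*, and the median log2 fold change was -0.31. *Stat5b*, a transcription factor that the receptor activates, had 200, 41.4 and 53.1 CPM against 31.4, 36.4 and 27.3 CPM. *Socs2*, a feedback inhibitor of the pathway, had 11.3, 0.406 and 2.87 CPM against 18.8, 33.1 and 28.6 CPM.

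Among 32 listed neuropeptides 13 were tested, the sums did not overlap for *Gal* on the higher side and for 3 on the lower side, and the median log2 fold change was -0.92. *Cartpt*, the gene of the CART peptide, reached 10 reads in 9 positive and 32 negative cells. Its sums were 177, 27.2 and 99.9 CPM against 29.6, 2.47 and 4.27 CPM, higher in positive cells of each mouse and overlapping between mouse 7 positive and mouse 1 negative cells. *Tac1*, which encodes substance P, was almost absent, with 1.502, 0 and 0.287 CPM in positive and 516.7, 120 and 32.8 CPM in negative sums. No positive cell of 15 reached 10 *Tac1* reads and 21 of 194 negative cells did, so most negative cells fell short of 10 reads too. Its log2 fold change was -8.38 ± 1.44 (SE; edgeR adjusted p = 0.307), and it was called lower over 5 mice with and without the block (adjusted p = 0.00654 and 0.00956). With cells of 1 or more *Gad1* reads taken as positive, which also brought mouse 2 into the sums, it was 0.18.

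No gene of the midbrain subtype list passed in 3 mice. For 11 of 20 subtype genes, all tested, the positive sums lay below the negative ones, for none above and for 9 they overlapped, and the median log2 fold change was -1.15. *Calb1*, the calcium buffer calbindin, had 316, 559 and 538 against 1056, 1019 and 1210 CPM, although 12 of 15 positive cells held it. *Grp*, gastrin-releasing peptide, had 24.0, 30.0 and 20.1 against 101, 154 and 176 CPM, and *Lpl*, lipoprotein lipase, had 36.1, 34.1 and 23.0 against 97.3, 235 and 153 CPM. *Chrna6*, a nicotinic receptor subunit of midbrain dopamine neurons, overlapped, with 45.1, 662 and 1081 against 990, 925 and 1053 CPM. The cells with 12 (mouse 7) and 53 *Gad1* reads (mouse 8) held 1477 and 3319 CPM of *Chrna6*, while the highest of the other 13 positive cells held 373 CPM and the median of all 15 was 6.69 CPM. With positive cells from 100 reads the sums were 40.3, 199 and 80.6 CPM and did not overlap the negative ones. None of these passed (edgeR adjusted p = 0.307 for *Calb1*, *Grp* and *Lpl*, and 0.961 for *Chrna6*).

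*Slc17a6*, the vesicular glutamate transporter VGLUT2 (chromosome 7, 51621830 to 51671126), had 12.8, 46.3 and 45.1 CPM in positive and 210, 211 and 358 CPM in negative sums, without overlap. It reached 10 reads in 4 of 15 positive and 109 of 194 negative cells, with a log2 fold change of -2.88 ± 0.58 (SE; edgeR adjusted p = 0.307). The 4 positive cells were those with 12, 14, 53 and 95 *Gad1* reads, at 124, 21.6, 144 and 54.6 CPM of *Slc17a6*. A limit of 100 *Gad1* reads, chosen after the data were seen, leaves out all 4. The positive sums of *Slc17a6* were then 2.43, 1.91 and 0.831 CPM and its log2 fold change was -7.20, which passed (edgeR adjusted p = 0.0346). That pass rests on leaving out the cells that held the gene. Of the 3 vesicular glutamate transporters listed, 2 were tested, and the sums of the other, *Slc17a8*, overlapped. *Drd2*, the dopamine autoreceptor, had 27.0, 46.3 and 38.5 CPM against 96.3, 101 and 78.9 CPM, and it was the member of its list of receptors and potassium channels, of which 4 of 7 were tested, whose sums did not overlap. Of the 7 tested pacemaker and cation channels of 12 listed, none was higher without overlap and 1 was lower.

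**Figure D3:**
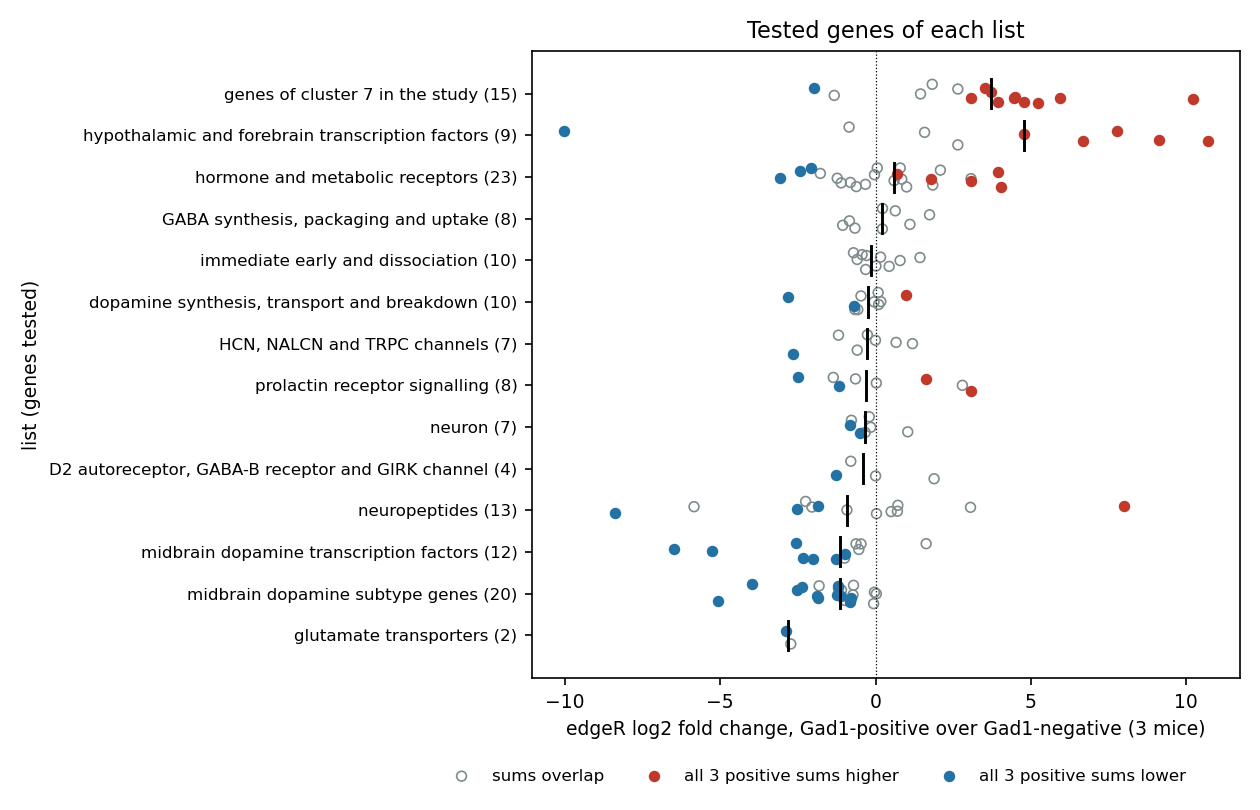
Log2 fold change (edgeR, 3 mice) of the tested genes of 14 lists, 1 point per gene, with a bar at the median of each list. Red points are genes whose 3 positive sums all exceed the 3 negative sums, blue points those with all 3 below, and open points overlap; the forebrain factors have a median of 4.78 and the midbrain subtype genes one of -1.15, and no gene passed an adjusted p of 0.05.

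Genes were also taken from the whole table by the ratio of mean CPM over cells, limited to genes that reached 10 reads in 75% or more of the cells of the higher group, and no test is claimed for that choice. On the higher side these were 15 genes, among them *Otof*, *Ecel1*, *Pkib*, *Six6*, *Lhx1os*, *Calcr*, *Arhgap36*, *Ucp2*, *Prlr*, *Gadd45g*, *Tmem176b*, *Rab3b*, *Necab2* and *Spock1*. Their edgeR log2 fold changes ran from 1.82 to 5.92 with adjusted p of 0.154 to 0.929, a direction that the choice fixed. *Lhx1os* is named as antisense to *Lhx1*, and since the counting is not stated to use strand, its reads cannot be assigned to it with certainty.

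*Pkib*, which encodes an inhibitor of protein kinase A (chromosome 10, 57631981 to 57741112), had the lowest adjusted p of all genes. Its positive sums were 656, 292 and 499 CPM and its negative sums 8.33, 12.0 and 3.44 CPM. The groups were far apart, and the positive cells of mice 2 and 5 lay on the same side, with 231 and 713 CPM against 8.39 and 9.64 CPM. The mean was 482 ± 183 against 7.91 ± 4.28 CPM (SD, n = 3 mice), the log2 fold change was 5.92 ± 0.60 (SE; edgeR adjusted p = 0.154), and over 5 mice the adjusted p was 0.000717, or 0.00623 with the block. It was 0.0346 in 3 mice with positive cells from 100 *Gad1* reads. It reached 10 reads in 13 positive and 29 negative cells.

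*Rab3b*, a small GTPase of secretory vesicles (chromosome 4, 108879070 to 108943324), had 1437, 553 and 998 against 72.0, 122 and 126 CPM without overlap. All 15 positive and 130 negative cells held at least 10 reads, and its log2 fold change was 3.22 ± 0.42 (SE; edgeR adjusted p = 0.204, 0.0118 over 5 mice, and 0.00623 with the block). *Fam159b*, a gene of the same list of cluster 7 genes as *Pkib*, had 98.4, 22.3 and 102 CPM against 0, 0.0617 and 0.0637 CPM and reached 10 reads in 11 positive and 1 negative cell. *Ucp2*, a mitochondrial carrier, had 527, 201 and 180 against 53.7, 18.8 and 6.88 CPM. *Ecel1*, a membrane peptidase, had 314, 68.2 and 266 against 6.50, 0.494 and 22.4 CPM.

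Of 15 genes that the study listed for its cluster 7, all tested, the positive sums lay above the negative ones in 10 and below in 1, with a median log2 fold change of 3.73. That list was chosen by the study on these same cells and is no independent evidence of the direction. 2 of its members, *Fxyd7* and *Nrn1*, had lower values in positive cells of each mouse (*Fxyd7* 1.502, 36.5 and 29.9 against 94.7, 98.3 and 81.0 CPM; *Nrn1* 1.502, 92.2 and 14.4 against 57.6, 125 and 104 CPM).

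On the lower side the same choice gave *Lix1*, *Pcsk2*, *Ubash3b*, *Gria3*, *Serpine2*, *Cplx1*, *Nrip3*, *Nrn1*, *Nos1ap*, *Fxyd7*, *Pcsk1*, *Psd3*, *Chrnb3*, *Thy1* and *Rapgef5*. Their log2 fold changes ran from -3.44 to -0.81 and their edgeR adjusted p from 0.330 to 0.947, again with the direction fixed by the choice. *Gria3*, an AMPA receptor subunit, had 23.0, 1.22 and 50.8 against 384, 205 and 217 CPM and reached 10 reads in 5 of 15 and 169 of 194 cells. *Pcsk2*, a convertase that cuts prohormones, had 3.51, 50.8 and 54.0 against 378, 287 and 314 CPM and reached 10 reads in 4 of 15 and 169 of 194 cells. *Cplx1*, complexin 1 of the release machinery, had 117, 302 and 342 against 476, 535 and 692 CPM, although 12 of 15 positive cells held it.

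The 15 positive cells differed among themselves. The cell with 12 *Gad1* reads (mouse 7) and the one with 53 (mouse 8) held no *Gad2* and no *Gal*, and they had the highest *Th* of the 15 (9803 and 8337 CPM), *En1* of 193 and 215 CPM, *Nr4a2* of 417 and 311 CPM and *Slc17a6* of 124 and 144 CPM. *Pkib* was 0 and 1.86 CPM in these cells, against 231 to 1122 CPM in the other 13. The cell with 14 *Gad1* reads (mouse 1) was unlike these, with 1199 CPM of *Gad2*, 926 CPM of *Calcr* and 308 CPM of *Pkib*. In 1 positive cell, with 95 *Gad1* reads (mouse 1), *Th* was 16.5 CPM, and this cell held the most *Slc32a1*, 82.7 CPM.

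The 10 positive cells with at least 10 *Gal* reads had 541 to 5151 CPM of *Th* with a median of 1502 CPM, and the 5 without had 16.5 to 9803 CPM with a median of 5380 CPM. Over the 15 cells Spearman's rho was -0.62 between *Gal* and *Th*, 0.11 between *Gad1* and *Gal*, and 0.00 between *Gad1* and *Th*. Pearson's r of log2 values was -0.16, 0.31 and -0.05, so that the relation of *Gal* and *Th* was weak by that measure. These are a description of cells that share mice and chips. *Pkib* was present in all 10 *Gal* cells, at 289 to 1122 CPM.

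**Figure D4:**
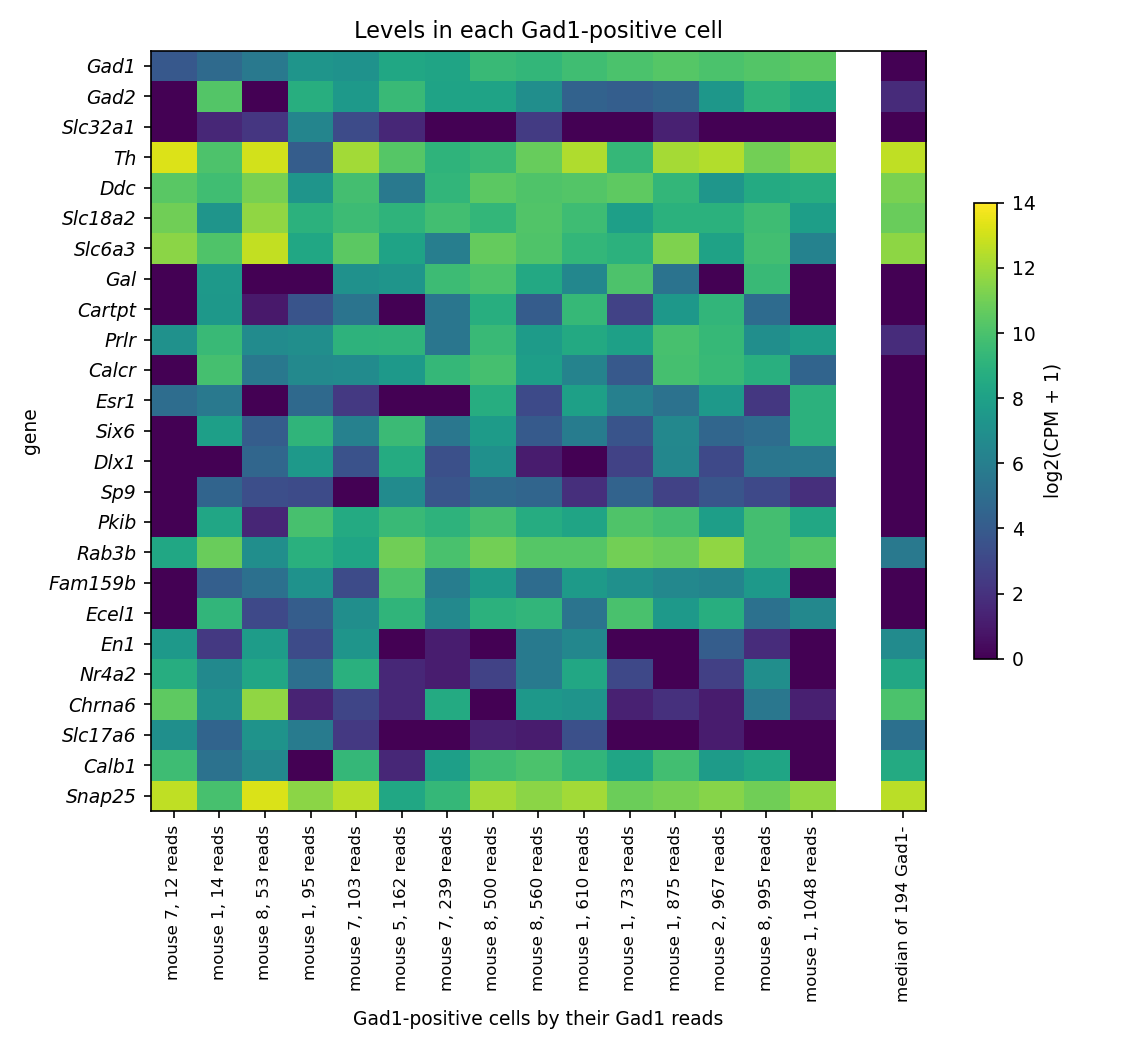
Level of 25 genes as log2(CPM + 1), shown by colour, in each of the 15 *Gad1*-positive cells from the lowest to the highest *Gad1* reads, with the median of the 194 *Gad1*-negative cells at the right. *Rab3b* and *Prlr* are present in every positive cell, *Slc32a1* is near 0 in most, and the cells with 12 and 53 reads hold no *Gad2*.

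Other cell types were checked with marker lists. Each of the 7 neuron markers had 10 reads in at least 8 of the 15 positive cells. The positive sums lay below the negative ones for 2 of them, *Tubb3* and *Stmn2*, the median log2 fold change was -0.33, and none passed. Their summed level was lower in positive cells of each mouse, and it was 6168 to 9295 CPM in positive and 7663 to 11332 CPM in negative sums, with a median per cell of 6328 CPM (range 1775–16302) and 12833 CPM (range 7.36–26365). The 8 oligodendrocyte markers summed to 167, 10465 and 46.8 CPM in the positive sums of mice 1, 7 and 8 and to 83.8, 158 and 88.4 CPM in the negative sums, through 1 positive cell of mouse 7 with 239 *Gad1* reads. The 7 astrocyte markers summed to 97.9, 306 and 470 CPM in positive sums and to 1108, 411 and 390 CPM in negative sums, and *Slc1a3*, a defining gene, was at 0 in all positive sums. In mouse 1, 3 negative cells held 1860 to 2362 CPM of *Slc1a3* and 1.47 to 15.2 CPM of the neuronal *Snap25*, and 2 of them were the negative cells with *Six6*. Microglia and endothelial and mural markers summed to at most 3.73 CPM in any sum. Tanycyte and ependymal markers summed to at most 130 CPM in positive sums and to 1018 CPM in the negative sum of mouse 1.

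With 5 cells rich in reads of glial markers left out of these sums (1 positive, 4 negative), an alternative added after the data were seen, 0 of 11571 genes passed and *Gal* had a log2 fold change of 7.54. Genes of immediate early response and dissociation had a median summed level of 1712 CPM in positive and 196 CPM in negative cells, but mouse 1 was high in both sums (2548 and 4730 CPM, against 752 and 277 in mouse 7 and 911 and 397 in mouse 8), and none of its 10 tested genes had sums without overlap. The part of these markers in the differences above was not tested.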

How the data were processed

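The deposited table holds whole-number read counts per gene for 384 cells. The authors made these counts by Trimmomatic 0.3.2 trimming, TopHat2 2.1.1 alignment against the GRCm38.3 genome and featureCounts 1.5.0-p3 over RefSeq genes, which left out reads on several genes. Reads carry no molecular identifiers. The binomial intervals cover counting error over cells only and not the spread between mice. Spike-in and transgene entries (0.00457% of reads) were removed. The deposited metrics table names no cell and was not used.

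Cells of at least 500000 reads were split at 10 *Gad1* reads, and counts were summed per mouse and group for mice with at least 3 cells on either side. Tests on the sums used edgeR 4.0.16 under R 4.3.3 (filterByExpr, TMM factors, quasi-likelihood F test without a block, Benjamini-Hochberg adjustment over all genes tested, *Gad1* left out). SE is the absolute log2 fold change divided by the square root of F. CPM are counts per 1000000 reads of the cell or sum. A mouse is the replicate, so p-values measure the spread between mice, each with its own run. Positive and negative sums of a mouse come from the same animal, and their deviations from the group means correlated by 0.103, 0.0456 and 0.0505.

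Named genes were *Gal*, *Th* and, because fewer than 5 genes passed the threshold, the 15 genes in each direction with the largest ratio of mean CPM among those with 10 reads in 75% of cells of the higher group (2157 and 2981 candidates). The members, lists and named-gene rule were chosen with earlier results of these data known, and further genes are named from the lists with their values seen. Alternatives changed the *Gad1* limit, depth limit, cells per side, thinning to 500000 reads, block, normalization and filter, left out each mouse, or used DESeq2 1.42.0. Some genes and the results that need them are not reported here. The tests were tried on simulated data. Gene positions are from RefSeq for GRCm38.p6, which matched 263 of 264 genes. Python 3.11.15, numpy 2.4.6, pandas 2.3.3, scipy 1.17.1 and matplotlib 3.10.9 were used.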

Additional observations from a re-analysis of the deposited data

Results flagged for a closer look

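In the 5 positive sums of *Fam159b*, mouse 5, with 1 positive cell, stood far above the others at 1057 CPM, against 98.4, 80.0, 22.3 and 102 CPM in mice 1, 2, 7 and 8. In the 5 positive sums of *Tac1*, mouse 1 stood apart at 1.502 CPM, against 0, 0, 0 and 0.287 CPM. These values are all near 0, where a few reads set them apart, and all 5 lay below the lowest negative sum of 32.8 CPM. Chance alone marks about 5% of groups by this measure, Dixon's gap over range, and 14 groups of sums of 5 mice were looked at.

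3 cells outside the comparison, each with fewer than 500000 reads, also passed 10 *Gad1* reads. A cell of mouse 8 with 248067 reads held 36 *Gad1* reads, 10916 CPM of the glial gene *Slc1a3*, 80.6 CPM of *Snap25* and 20.2 CPM of *Th*. A cell of mouse 1 with 102159 reads held 13 *Gad1* reads, with 333 CPM of *Th*, 2721 CPM of *Slc6a3* and 1488 CPM of *Chrna6*. Another cell of mouse 1, with 73536 reads, held 80 *Gad1* reads (1088 CPM), with 598 CPM of *Prlr*, 231 CPM of *Calcr* and 204 CPM of *Th*. Of the 79 cells with at least 100000 but fewer than 500000 reads, 2 (2.53%) were *Gad1*-positive.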

How the results depend on the processing

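No gene passed edgeR in 3 mice, with or without the replicate block (mouse as block: *Gal* 8.44, adjusted p = 0.394; *Th* -0.76, adjusted p = 0.668). The count was also 0 in both directions with RLE factors, from 100000 reads per cell and without 5 cells rich in glial markers (chosen after seeing the data). It was 0 too in fits that held 2 mice instead of 3: from 50 *Gad1* reads, with thinning, with positive cells from 100 reads (likewise chosen), all 3 without mouse 7, and without each of the 3 mice in turn. It was 14 higher and 97 lower with 5 mice, 3 higher and 1 lower with 5 mice and the block (chosen after seeing the data), 109 higher and 188 lower with DESeq2, 1 higher without the filter and 3 higher from 1 *Gad1* read, where mouse 2 entered as well (4 mice). With positive cells from 100 reads and mice with at least 2 such cells (chosen after seeing the data), it was 1 higher and 1 lower. *Gal* passed with 5 mice (6.55, adjusted p = 0.0441) and DESeq2 (8.12, adjusted p = 7.83e-17), and over 17 alternatives it ran from 6.00 to 9.14 with adjusted p up to 0.513. *Th* ran from -1.33 to -0.07, with adjusted p of 0.177 to 0.999. The sign turned for *Nrip3* (0.41) and *Tac1* (0.18) from 1 *Gad1* read, for *Maoa* (-0.13) and *Gad2* (0.11) with 5 mice and the block, and for *Gad2* without mouse 8 (0.48; range without each mouse -1.56 to 0.48). The median log2 fold change of all genes was -0.04 in 3 mice and -0.34 with the block, and -0.14 in 5 mice and -0.99 with the block, where *Maoa* lay above that median. Of the values for the 32 named genes, 542 kept their sign, 1 did not and 27 passed. The share of positive cells was 12.0% from 1 *Gad1* read and 4.71% to 9.15% without each mouse, and the difference between females and males ran from -7.42 (without mouse 1) to 9.24 points. The cause of these differences was not tested. With 13 positive cells in 3 mice, a gene absent from a positive sum may be undetected at this depth.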
